A study of Homo sapiens with 6 samples.

Results

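The SCUBE genes encode a small family of secreted and cell-surface glycoproteins, and all 3 human members, SCUBE1, SCUBE2 and SCUBE3, were taken by gene symbol from a table of 35639 genes. SCUBE3 was chosen by its low values in H3.3-G34W cells in these libraries, and SCUBE1 and SCUBE2 were added as its paralogs, to ask whether they fell with SCUBE3 or rose in its place. The differences of SCUBE3 between H3.3-G34W and the control cells are therefore given as a description without a test.

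The libraries came from hFOB, osteoblast precursors of fetal human origin that carry a viral T antigen active at 34 °C. They were kept dividing at that temperature until RNA was taken, 15 days after lentiviral transduction. Cells received the empty vector (EV), wild-type histone H3.3 (H3.3-WT) or H3.3 with tryptophan in place of glycine at the position mutated in giant cell tumour of bone (H3.3-G34W), with 2 libraries for each; the lines are called EV, WT and G34W from here on. Poly(A) RNA was sequenced from a directional kit, and the values are normalised estimated counts. EV replicate 1 was left out because 80.5% of its genes are listed at 0, against 40.7% to 46% in the other libraries, which leaves 5 libraries for comparison.

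The transgene was the Drosophila His3.3A coding sequence with an HA tag, followed by an internal ribosome entry site and dTomato, and each line was sorted for dTomato. The endogenous human H3.3 genes were left intact, so mutant and normal H3.3 were present together. The table of human genes cannot show the transgene, so the labels could not be checked against it. The groups follow the library titles, which the column names of the deposited values match. The genotype field of the labels gives G34W and WT the other way round, so every direction between those lines rests on the titles and column names. The study used several infections of hFOB, but which of them gave these libraries is not stated, so p-values measure only the spread between these samples. In bulk RNA, fewer cells that express a gene and less RNA per cell cannot be told apart.

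SCUBE proteins carry a signal peptide, a row of EGF-like repeats, a cysteine-rich spacer and a CUB domain near the end of the protein. SCUBE2 helps cells to release lipid-modified hedgehog ligands, SCUBE3 has been described as a ligand of the type II TGF-β receptor and as a co-receptor for BMP with a part in skeletal growth, and SCUBE1 is best known from endothelium and platelets. In bone, hedgehog, TGF-β and BMP signals all act on osteoblast progenitors.

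The most alike stretch of the coding sequences is shown to let the similarity of the paralogs be judged, since reads that match several genes can be shared out between them. It spans 90 bases near the 3′ end of each coding sequence, from the longest coding transcript of each gene in GENCODE 44. Capitals mark the 70 bases that are identical in all 3 genes.
SCUBE1: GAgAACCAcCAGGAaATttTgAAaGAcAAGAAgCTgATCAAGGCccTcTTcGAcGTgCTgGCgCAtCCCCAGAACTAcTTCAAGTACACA
SCUBE2: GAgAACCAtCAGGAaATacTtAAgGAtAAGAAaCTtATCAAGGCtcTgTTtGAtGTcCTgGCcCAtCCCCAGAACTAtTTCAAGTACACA
SCUBE3: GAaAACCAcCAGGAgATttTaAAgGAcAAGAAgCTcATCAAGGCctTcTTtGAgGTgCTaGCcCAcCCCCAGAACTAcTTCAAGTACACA
The stretch starts at coding base 2791 of SCUBE1, 2911 of SCUBE2 and 2809 of SCUBE3, counted from the first base of the start codon. Over the aligned coding sequences, identity was 70.6% between SCUBE1 and SCUBE3, 67.2% between SCUBE1 and SCUBE2 and 64.4% between SCUBE2 and SCUBE3. The longest run of identical bases was 25 for SCUBE1 and SCUBE3, 29 for SCUBE1 and SCUBE2 and 17 for SCUBE2 and SCUBE3. No stretch of 31 bases was therefore common to any coding pair. Over all annotated transcripts, counted on both strands, SCUBE2 shared 0 stretches of 31 bases with either paralog, and SCUBE1 and SCUBE3 shared 27. None of the 27 was common to the longest coding sequences read on the same strand. Where in the transcripts the 27 lie was not determined. SCUBE3 shared 182 of its 7789 such stretches (2.34%) with any other gene, SCUBE1 632 of 12120 (5.21%) and SCUBE2 387 of 8130 (4.76%). The annotated antisense RNAs SCUBE1-AS1, SCUBE1-AS2 and SCUBE3-AS1 shared 0 with the gene each is named after.

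SCUBE3 (ENSG00000146197; chromosome 6 of GRCh38.p14, 35213956 to 35253079) was the most abundant member per kilobase of the longest coding transcript. It had 535 normalised estimated counts in EV replicate 2, 520.4 and 559.6 in the WT libraries, and 117 and 137 in the G34W libraries. Both G34W libraries lay far below the other libraries, which differed little among themselves. The mean was 127 ± 14.4 (SD, n = 2) in G34W and 540.0 ± 27.8 (SD, n = 2) in WT, so that 23.5% of the WT level was left. On the scale of log2(value + 1), on which all log2 differences here are given, SCUBE3 was lower by 2.08 in G34W than in WT (log2 difference -2.08, standard error 0.32) and lower by 2.07 than in EV replicate 2 (-2.07, standard error 0.40). Without G34W replicate 1 the difference from WT was -1.97. Of 13403 genes with a mean of at least 50, 16 (0.119%) had a lower log2 difference between G34W and WT than SCUBE3, the contrast on which SCUBE3 was selected, and among all 20723 genes tested 268 did.

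**Figure D1:**
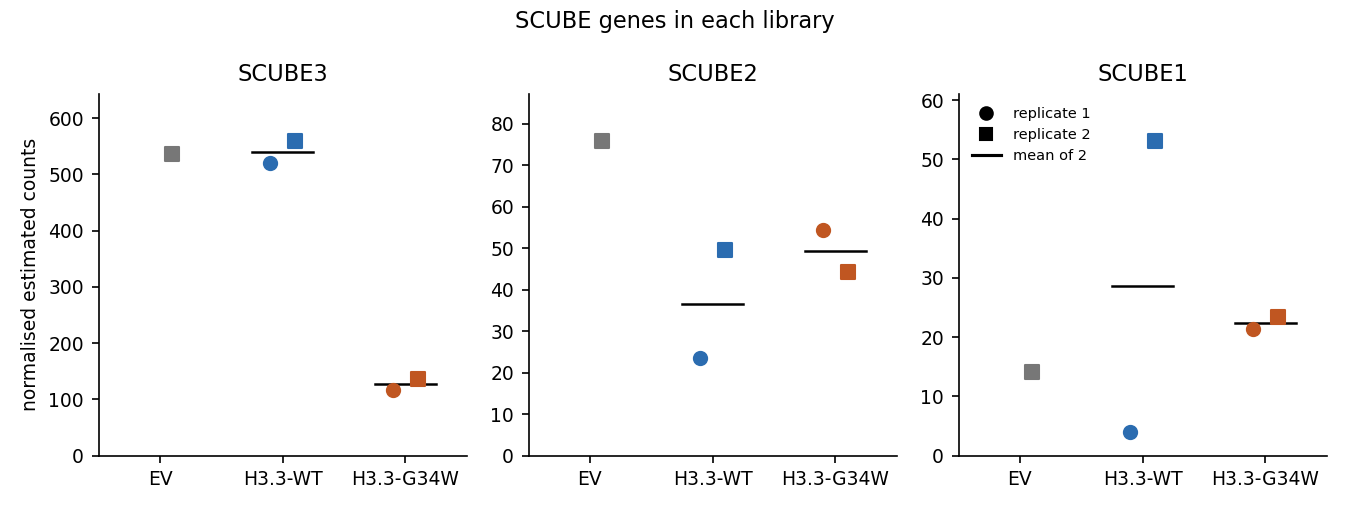
Normalised estimated counts (vertical axes, each from 0) of SCUBE3, SCUBE2 and SCUBE1 in the 5 libraries, by group; circles are replicate 1, squares replicate 2, and bars the mean of 2 libraries. SCUBE3 sits at 117 and 137 in G34W and at 520.4 or more in the other libraries, whereas the groups overlap for SCUBE2 and SCUBE1 between G34W and WT.

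SCUBE3 in WT was close to its value with the empty vector. The log2 difference of WT from EV replicate 2 was 0.01, with a 95% confidence interval from -0.97 to 0.99 (adjusted p = 1 from limma), and EV replicate 2 lay between the WT libraries. The interval still holds a change of nearly 2-fold in either direction, so the values do not show that the levels were equal. In limma, 0 of 20723 genes tested passed an adjusted p of 0.05 between WT and EV replicate 2 (0%), and 264 (1.27%) had an unadjusted p under 0.05. EV is a single library in this comparison and is assumed to vary like the other groups.

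SCUBE2 (ENSG00000175356; chromosome 11, 9019476 to 9091599), the member tied to hedgehog release, had 75.9 normalised estimated counts in EV replicate 2, 23.6 and 49.6 in WT, and 54.3 and 44.2 in G34W. The highest value was that of the empty vector and the lowest that of WT replicate 1, and the G34W values surrounded that of WT replicate 2. The mean was 49.3 ± 7.13 (SD, n = 2) in G34W and 36.6 ± 18.4 (SD, n = 2) in WT. The log2 difference of 0.50 (standard error 0.67) had a 95% confidence interval from -1.14 to 2.15 and an adjusted p of 0.9996 from limma. It was smaller than the spread between the WT libraries, whose log2 values differed by 1.04, and without WT replicate 1 it was -0.02. Without G34W replicate 1 it was 0.36. Against EV replicate 2, SCUBE2 had a log2 difference of -0.62 in G34W (95% confidence interval -2.64 to 1.40, adjusted p = 1 from limma) and of -1.12 in WT (-3.14 to 0.89, adjusted p = 1 from limma), the latter -0.60 without WT replicate 1 and -1.64 without WT replicate 2. Neither a loss nor a gain of SCUBE2 in G34W was detectable beyond the spread between libraries.

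SCUBE1 (ENSG00000159307; chromosome 22, 43197280 to 43343372) was low in every library. It had 14.1 normalised estimated counts in EV replicate 2, 4.0 and 53.2 in WT, and 21.4 and 23.5 in G34W. The WT libraries were the lowest and the highest of all 5, 13.3-fold apart, and both G34W libraries fell between them. The mean was 22.4 ± 1.42 (SD, n = 2) in G34W and 28.6 ± 34.8 (SD, n = 2) in WT. On the log2 scale the order turned, with a difference of 0.51 (standard error 1.26, 95% confidence interval -2.59 to 3.61, adjusted p = 0.9996 from limma), and without WT replicate 1 it was -1.21, so that the direction rested on single libraries. Without G34W replicate 1 it was 0.57. The log2 difference from EV replicate 2 was 0.63 in G34W (95% confidence interval -3.17 to 4.43, adjusted p = 1 from limma) and 0.12 in WT (-3.67 to 3.92, adjusted p = 1 from limma), and without WT replicate 2 the latter was -1.59.

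**Figure D2:**
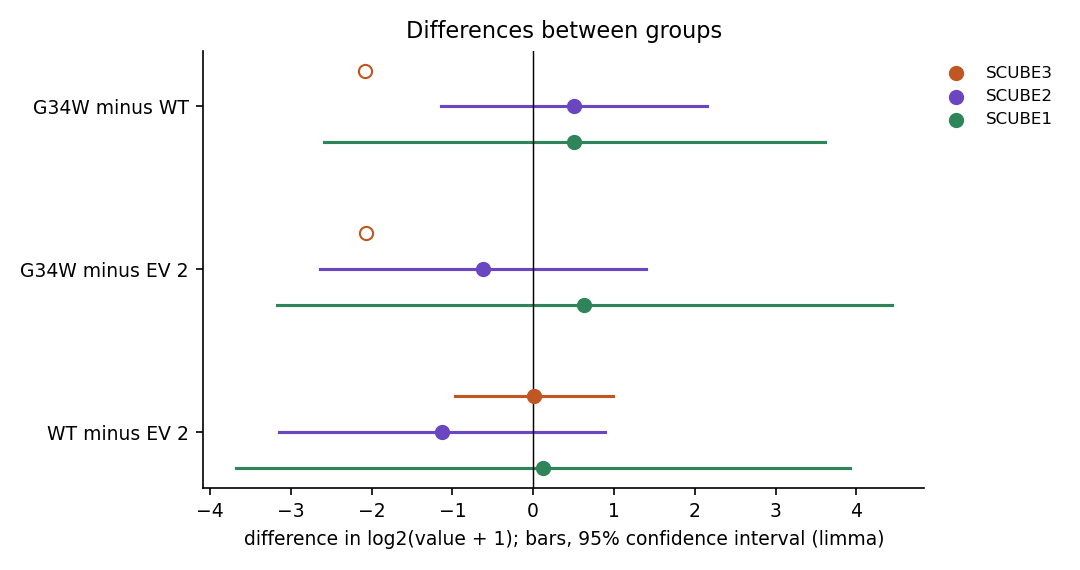
Differences in log2(value + 1) between groups (horizontal axis) for SCUBE3, SCUBE2 and SCUBE1 in 3 comparisons; filled points have a 95% confidence interval from limma, and open points, the SCUBE3 differences by which that gene was chosen, are drawn without one. All intervals drawn span 0, and those of SCUBE1, from -2.59 to 3.61 between G34W and WT, are the widest.

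Exact permutation tests over the 4 G34W and WT libraries gave two-sided p values of 0.667 for SCUBE2 and 1 for SCUBE1, in a design that cannot go below 0.333. In limma, 0 of 20723 genes passed an adjusted p of 0.05 between G34W and WT (0%), the lowest adjusted p being 0.916, and 482 (2.33%) had an unadjusted p under 0.05, of which 254 were higher and 228 lower in G34W. Between G34W and EV replicate 2 the counts were 0 (0%) and 376 (1.81%). For 2972 genes (14.3%) both G34W values were below both WT values, and for 2465 (11.9%) they were above. Of the SCUBE genes, SCUBE3 lay below by its choice, and SCUBE1 and SCUBE2 overlapped.

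The replicate spread of the members differed. The log2 values of SCUBE1 in the WT libraries were 3.44 apart, more than for 94.7% of 2462 genes with a mean within a factor of 2 of its own, for which the median gap was 0.88. For SCUBE2 the WT gap of 1.04 exceeded that of 65.4% of 2248 such genes. In G34W the gaps were 0.12 for SCUBE1 and 0.29 for SCUBE2, larger than those of 7.76% and 19.8% of the same genes. The wide spread of SCUBE1 was therefore that of WT, whereas the WT gap of SCUBE2 lay nearer to the median of its like genes, 0.72. SCUBE3 had gaps of 0.10 in WT and 0.23 in G34W, larger than those of 15.7% and 28.5% of 3054 such genes. The depth of each library is not known from the deposited values, so precision is judged here from the spread between libraries.

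Levels of different members were compared per kilobase of the longest coding transcript, which is 7.82 kb for SCUBE3, 4.73 kb for SCUBE2 and 9.79 kb for SCUBE1. In EV replicate 2 the levels were 68.5 normalised estimated counts per kilobase for SCUBE3, 16.0 for SCUBE2 and 1.44 for SCUBE1. In WT the mean per kilobase was 69.1 ± 3.55 for SCUBE3, 7.74 ± 3.89 for SCUBE2 and 2.92 ± 3.55 for SCUBE1 (SD, n = 2). In G34W it was 16.2 ± 1.84, 10.4 ± 1.51 and 2.29 ± 0.145 (SD, n = 2). With these lengths the order SCUBE3, SCUBE2, SCUBE1 was the same in each of the 5 libraries, although SCUBE2 and SCUBE1 in WT differed by little more than their spread. SCUBE3 stood well clear of its paralogs in the control libraries, whereas in G34W it came near SCUBE2, with 14.9 against 11.5 per kilobase in replicate 1 and 17.5 against 9.36 in replicate 2.

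That order of SCUBE3 and SCUBE2 in G34W depended on the SCUBE2 transcript taken. The log2 ratio of SCUBE3 to SCUBE2 per kilobase in G34W was 0.64 with the longest SCUBE2 transcript and -0.06 with a coding transcript of 2.91 kb, and in WT it was 3.25 and 2.55. SCUBE3 was above SCUBE2 in WT with each of the 4 SCUBE2 lengths tried. With the shorter SCUBE1 transcript, of 2.26 kb, SCUBE3 was still above SCUBE1 in G34W, by a log2 ratio of 0.70 in place of 2.82. With that length SCUBE1 was above SCUBE2 in WT replicate 2 (23.5 against 10.5 per kilobase) and in G34W replicate 2 (10.4 against 9.36), so the order of these members was not settled. The table holds values per gene, so the transcript in use was not measured.

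**Figure D3:**
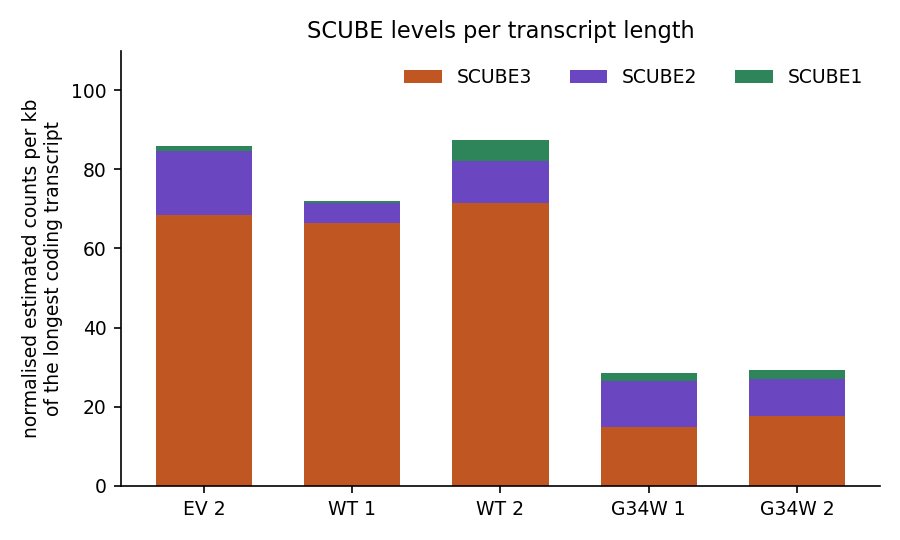
Stacked bars of normalised estimated counts per kilobase of the longest coding transcript (vertical axis, from 0) for SCUBE3, SCUBE2 and SCUBE1 in each of the 5 libraries. The bars reach 86.0 in EV replicate 2, 72.0 and 87.5 in WT, and 28.6 and 29.3 in G34W, and SCUBE3 makes up most of the height in the EV and WT libraries.

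The summed level of the family followed SCUBE3. It was 86.0 per kilobase in EV replicate 2, 72.0 and 87.5 in WT, and 28.6 and 29.3 in G34W, so that the G34W mean was 36.3% of the WT mean. The share of SCUBE3 in the sum was 79.7% in EV replicate 2, 92.5% and 81.8% in WT, and 52.2% and 59.9% in G34W. These sums and shares rest on the longest coding transcripts. With the SCUBE2 transcript of 2.91 kb, SCUBE2 had 18.7 and 15.2 per kilobase in G34W, beside 14.9 and 17.5 for SCUBE3. The SCUBE3 shares in G34W would then be lower. SCUBE3 was lower per kilobase in G34W than in WT, by a difference of -52.8, whereas SCUBE2 and SCUBE1 together differed by 2.06, which is 3.89% of the SCUBE3 difference in size. The paralog sum was 5.40 and 15.9 in WT and 13.7 and 11.8 in G34W, and its difference was -3.20 without WT replicate 1 and 7.31 without WT replicate 2, so the direction rested on single libraries. Against EV replicate 2 the paralogs together were lower in G34W, by a difference of -4.77 beside -52.3 for SCUBE3. These sums hold SCUBE3, which was chosen on the contrast, and were not tested.

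The genomic surroundings of each SCUBE gene were compared next. Of 14 protein-coding genes within 500 kb of SCUBE3, all were in the table, and the 11 with a mean of at least 50 had log2 differences between G34W and WT from -0.38 for DEF6 to 0.29 for FKBP5, a glucocorticoid-responsive co-chaperone, with a median of -0.12. The nearest, ZNF76, a zinc finger gene whose border lies 6.45 kb from SCUBE3, had 1580.1 normalised estimated counts in EV replicate 2, 1162 and 1693 in WT and 1080.1 and 1859 in G34W. Its G34W values surrounded those of WT, a log2 difference of 0.01 (standard error 0.35). Both G34W libraries lay below both WT libraries for 3 of the 14 neighbours, ANKS1A, FANCE and TULP1, and above for 0. Of all genes tested, 14.3% lay below and 11.9% above, and 14 genes are too few for a share to be read. TULP1, with a mean under 50, had the lowest difference among the 14 neighbours, at -1.31 (standard error 0.88).

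Around SCUBE2, 12 of 14 neighbours had a mean of at least 50, and their log2 differences ran from -0.39 for NRIP3 to 0.50 for WEE1, with a median of 0.02. Around SCUBE1, 8 of 11 did, with differences from -0.38 for TTLL1 to 0.18 for TTLL12 and a median of -0.19. The differences of 0.50 for SCUBE2 and 0.51 for SCUBE1 lay at or above the upper ends of these ranges, with standard errors of 0.67 and 1.26, but without WT replicate 1 they were -0.02 and -1.21, so this place rested on a single library. SCUBE1 and SCUBE2 have means under 50 themselves, and of the SCUBE1 neighbours under that mean EFCAB6 and SULT4A1 had larger differences, of 1.19 (standard error 0.89) and 1.18 (standard error 1.76). Of 13 tested neighbours of SCUBE2, both G34W libraries lay below both WT libraries for 0 and above for 1. Of 10 tested neighbours of SCUBE1, 1 lay below and 1 above. None of the neighbours of any SCUBE gene had an unadjusted p under 0.05 in limma, beside 2.33% of all genes tested.

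**Figure D4:**
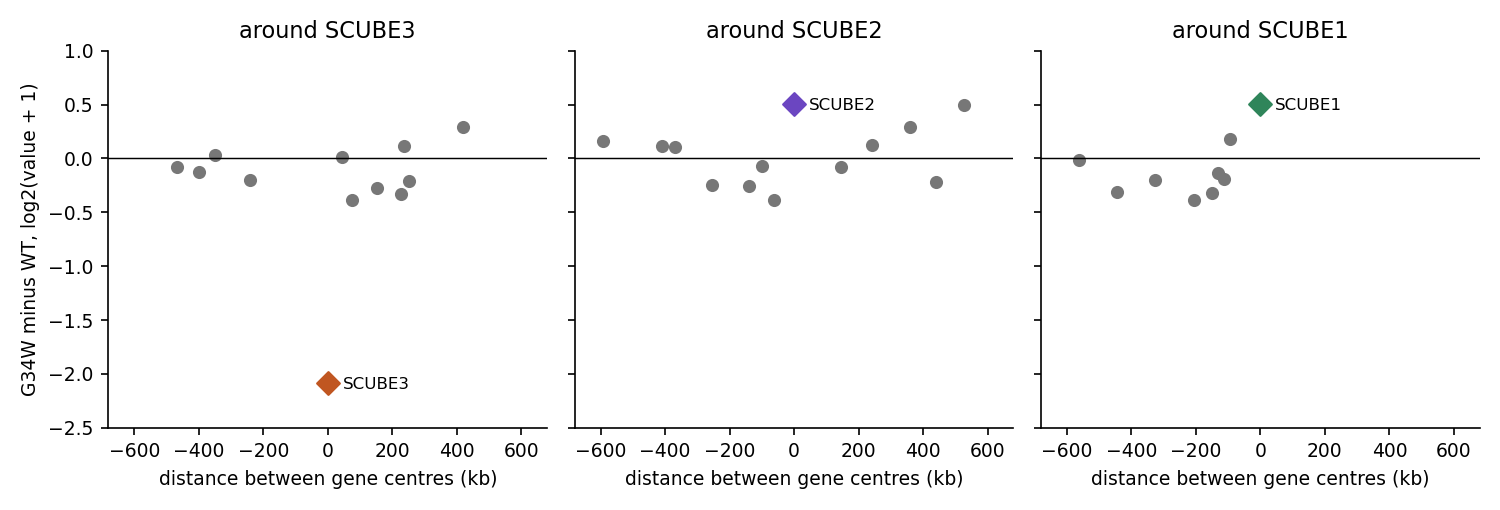
Log2 differences between G34W and WT (vertical axes) of protein-coding genes within 500 kb of SCUBE3, SCUBE2 and SCUBE1 with a mean of at least 50 (grey points), by the distance in kilobases between gene centres; diamonds are the SCUBE genes. The neighbours of SCUBE3 lie between -0.38 and 0.29, and SCUBE3 itself at -2.08.

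Among 13402 other genes with a mean of at least 50, the 8 whose pattern lay nearest to that of SCUBE3, by the Euclidean distance of centred log2 values over the 5 libraries, were HERC2P4, ADRA2A, PITX1, SKA1, HOXD11, IGF2, ELFN1 and HOXD10. SCUBE1 and SCUBE2 had means under 50 and were not searched. The closest, HERC2P4 at a distance of 0.43, is a pseudogene of HERC2 whose reads can be split with its parent, so its values are uncertain. It had 73.3 normalised estimated counts in EV replicate 2, 67.0 and 82.5 in WT, and 21.6 and 21.2 in G34W. PITX1, a homeobox gene of the hindlimb, had 213 in EV replicate 2, 163 and 115 in WT, and 27.1 and 45.0 in G34W. IGF2, a growth factor, had 544 in EV replicate 2, 438 and 627 in WT, and 185 and 237 in G34W. All 8 genes were lower in both G34W libraries than in the other libraries, as the search selects. Without G34W replicate 1, 3 of the 8 remained among the nearest, HERC2P4, HOXD10 and HOXD11, the last 2 being neighbouring genes of the HOXD cluster.

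**Figure D5:**
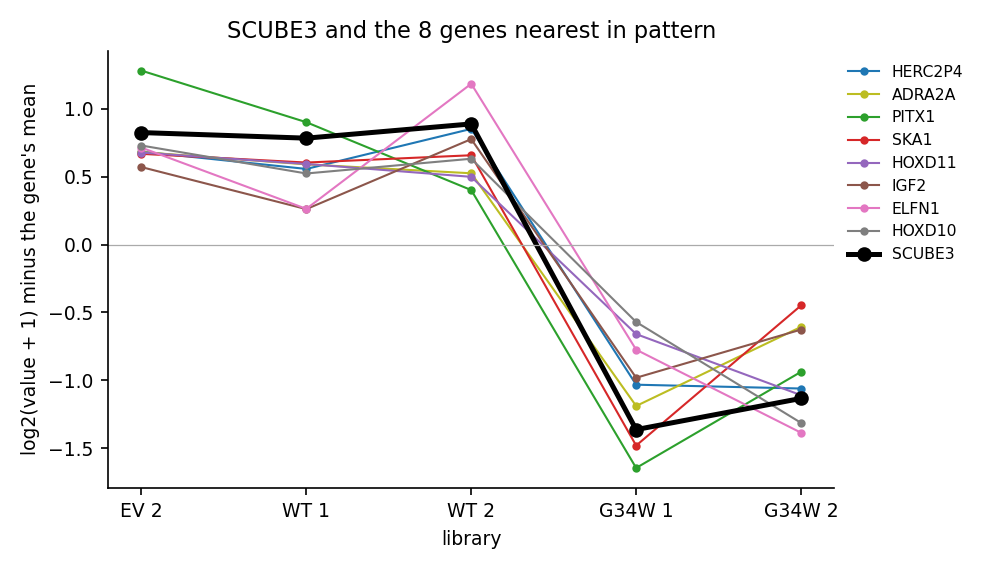
Log2(value + 1) minus each gene's own mean (vertical axis) in the 5 libraries for SCUBE3 (thick line) and the 8 genes nearest to it by Euclidean distance. The lines join libraries for legibility only, and those of all 9 genes are below 0 in both G34W libraries and above 0 in the other 3 libraries.

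G34W replicate 1 stood apart from the other libraries in genes unrelated to the SCUBE family. The summed value of 12 pluripotency markers was 64988 in it and between 711 and 932 in the other libraries, with 0 of the 12 at 0 and 11 at 50 or more, and its most abundant marker, POU5F1, had 19441 against 41.6 to 75.4 elsewhere. SCUBE3 was also low in G34W replicate 2, at 137 beside 117 in replicate 1, and there the marker sum was 711. The part of that library in the values of SCUBE1, SCUBE2 and SCUBE3 was not tested.

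The cell type of the line was checked against 12 osteoblastic and mesenchymal markers, whose summed value ran from 305004 to 451461 with VIM as the most abundant. COL1A1, COL1A2 and SPARC were abundant in each of the 5 libraries. Of the genes of mature osteoblasts, IBSP was listed at 0 in 4 of 5 libraries and SP7 was between 1.43 and 6.03. BGLAP was between 4.08 and 44.9 and SPP1 between 171 and 649. ALPL was 1216 in G34W replicate 1, the library with pluripotency markers, and between 107 and 428 in the other libraries. Markers of the cells in which SCUBE1 is best known varied in level. Among 5 platelet markers, GP9 was listed at 0 in all 5 libraries and PPBP in 4, and the sum was 42.0 to 186 with ITGA2B as the most abundant. Among 5 endothelial markers, the sum was 863 to 2106, most of it TEK (782 to 1958), with PECAM1 at 40.4 to 92.0, VWF at 23.7 to 83.9 and CDH5 at 0 to 10.9. Among 5 myeloid markers the sum was 110 to 194, with CSF1R or CD14 as the most abundant, PTPRC from 4.90 to 25.4 and AIF1 at 0 in 3 libraries. Of 9 neural markers, TUBB3 made up most of a sum of 4489 to 8211, NEUROD1 was at 0 in 4 libraries, and 2 of the 8 tested (25%, beside 2.33% of all genes) had an unadjusted p under 0.05 between G34W and WT: MAP2, with 5.28 and 2.35 in WT, 77.2 and 51.1 in G34W and 116 in EV replicate 2, and DCX, with 0.38 and 0 in WT, 196 and 4.27 in G34W and 6.83 in EV replicate 2. Both G34W libraries lay above both WT libraries for 4 of the 8 (50%, beside 11.9% of all genes) and below for 0, and with replicate 2 alone for 4 (beside 30.9%) and 1 (beside 22.6%). STMN2, among the higher genes in both counts, had 0.96 and 0 in WT, 0 in EV replicate 2 and 23.2 and 3.44 in G34W. It passed the filter on the mean only through its G34W values, so no conclusion is drawn from these shares. Counted with both G34W libraries, 0 of 11 osteoblastic and mesenchymal, 3 of 12 pluripotency, 0 of 5 endothelial, 0 of 3 platelet and 0 of 4 myeloid markers tested lay above, and 3, 0, 1, 1 and 0 below (beside 14.3%). With replicate 2 alone these counts were 4, 3, 0, 0 and 1 above and 4, 5, 3, 1 and 1 below. None of the marker lists had a member past an adjusted p of 0.05 in limma, and their part in the SCUBE values was not tested.

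Pathway genes, proteins with the domains of the SCUBE family and possible regulators of SCUBE3 were described from 11 lists with 132 genes. In limma 0 of the 130 tested passed an adjusted p of 0.05 between G34W and WT, and 1 was higher and 4 lower at an unadjusted p under 0.05, beside 2.33% of all genes tested (254 higher and 228 lower of 20723). Both G34W libraries lay below both WT libraries for 16 of the 130 (12.3%, beside 14.3% of all genes tested) and above for 13 (10%, beside 11.9%). The median log2 difference was -0.07, against -0.05 for all genes tested. With G34W replicate 2 alone, 30 (23.1%) lay below and 39 (30%) above both WT libraries, beside 22.6% and 30.9% of all genes tested.

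The hedgehog ligands that SCUBE2 would release were barely present. SHH was listed at 0 in all 5 libraries, IHH was 0 in 4 and 1.14 in G34W replicate 2, and DHH was between 1.46 and 15.9. HHAT, the acyltransferase of hedgehog, was between 338 and 465, and DISP1, the transporter that passes hedgehog to SCUBE2, between 183 and 334. The 4 release genes tested had a median log2 difference of 0.06, with 0 of 4 below and 0 of 4 above both WT libraries, beside 14.3% and 11.9% of all genes tested, too few genes for a share to be read.

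On the receiving side, the hedgehog receptor PTCH1 was between 188 and 297 and the transducer SMO between 992 and 1669, and the target and transcription factor GLI1 had 107 in EV replicate 2, 58.7 and 40.9 in WT and 87.3 and 46.5 in G34W. Of 13 genes of hedgehog reception, both G34W libraries lay below both WT libraries for 3 and above for 2, beside 14.3% and 11.9% of all genes tested, and the median log2 difference was 0.00. With G34W replicate 2 alone, 3 lay below and 4 above, beside 22.6% and 30.9%. HHIP, a membrane-bound antagonist that binds hedgehog ligands, had 756 in EV replicate 2, 835 and 1063 in WT and 403 and 379.5 in G34W. HHIP was lower in both G34W libraries than in each other library, with a log2 difference of -1.27 (standard error 0.27, adjusted p = 0.9996 from limma), which did not pass the threshold.

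The TGF-β and BMP receptors to which SCUBE3 is known to bind were present in all libraries. TGFBR2, the type II TGF-β receptor, had 5722 in EV replicate 2, 5499 and 6613 in WT and 4183 and 5689.7 in G34W, a log2 difference of -0.31 (standard error 0.25). BMPR1A was between 2162 and 3214, and BMPR2 between 1368 and 1777. Of 11 receptors, 1 lay below and 2 above both WT libraries in both G34W libraries, beside 11.9% of all genes above and 14.3% below, with a median log2 difference of -0.15. Of 9 ligands, 1 lay below and 1 above (median -0.26). With G34W replicate 2 alone, 2 receptors and 3 ligands lay below and 3 of each above, beside 22.6% and 30.9% of all genes. BMP7, the higher, had 4.46 in EV replicate 2, 7.58 and 0.82 in WT and 65.2 and 18.1 in G34W.

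Downstream of these receptors, 1 of 8 SMAD genes lay below and 1 above (median -0.18), and 2 of 10 target genes lay below and 0 above (median -0.11), beside 14.3% and 11.9% of all genes tested. With G34W replicate 2 alone, 2 SMAD genes lay below and 3 above and 4 target genes below and 0 above, beside 22.6% and 30.9%. ID1, a BMP target, had 1183 in EV replicate 2, 1155 and 2330.2 in WT and 946 and 1321 in G34W. The G34W and WT values overlapped. Of 8 secreted BMP antagonists, 2 lay below and 0 above (median -0.38), and with G34W replicate 2 alone 4 and 1. Among 7 VEGF and FGF receptors, 0 lay below and 2 above (median 0.41), and with that library alone 3 and 4. KDR, the VEGF receptor that SCUBE2 is known to bind, had 54.5 in EV replicate 2, 78.3 and 76.3 in WT, 656 in G34W replicate 1 and 26.6 in replicate 2, so that its G34W mean rested on the library with pluripotency markers.

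Other proteins that share a domain with SCUBE3 were counted too. Of 22 genes with a CUB domain, 3 lay below both WT libraries in both G34W libraries and 2 above (median log2 difference 0.08), beside 14.3% and 11.9% of all genes tested, and CSMD1 alone had an unadjusted p under 0.05, with 15.01 and 44.1 in WT, 5.65 and 2.71 in G34W and 2.76 in EV replicate 2. Of 25 secreted proteins with EGF repeats, 3 lay below and 2 above (median -0.08). With G34W replicate 2 alone, 5 CUB genes lay below and 8 above and 4 EGF genes below and 6 above, beside 22.6% and 30.9% of all genes tested. FBN1, which encodes fibrillin, had 25503 in EV replicate 2, 22981 and 22086 in WT and 14512 and 13263 in G34W, a log2 difference of -0.70 (standard error 0.22, adjusted p = 0.9996 from limma). LTBP1, which tethers latent TGF-β to the matrix, had 6041, 5965, 7285, 4648 and 4275 in the same order, a log2 difference of -0.56 (standard error 0.21, adjusted p = 0.9996 from limma). FBN1 and LTBP1 were lower in both G34W libraries than in each other library but did not pass the threshold.

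The last list held 13 possible regulators of SCUBE3, namely FOS with other AP-1 subunits, ZBTB40, Polycomb subunits and SIN3A. Both G34W libraries lay below both WT libraries for 0 of the 13 and above for 1, SUZ12, a Polycomb subunit, beside 14.3% and 11.9% of all genes tested, with a median log2 difference of -0.05. This count depended on G34W replicate 1, and with replicate 2 alone 0 lay below and 7 (53.8%) above, beside 22.6% and 30.9% of all genes tested. EZH2, the methyltransferase of Polycomb, had 2167 in EV replicate 2, 2379 and 2337 in WT and 1649 and 2369.9 in G34W. ZBTB40 had 1609 in EV replicate 2, 1451 and 1733 in WT and 1142 and 1551 in G34W.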

How the data were processed

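The deposited values are a signal, estimated counts that the authors obtained with kallisto and Ensembl GRCh38 transcripts, summed to genes through tximport and normalised in DESeq2. They are not whole numbers and could not be turned back into reads, so depth is unknown and tests made for counts were left out. The design had allowed for raw counts, and limma was used because the values are normalised.

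Values were transformed as log2(value + 1), a scale that understates changes of low genes. The 20723 genes with a mean of at least 1 over 5 libraries were fitted in limma (version 3.58.1, in R 4.3.3) with a variance trend and no covariates, with Benjamini-Hochberg adjustment at 0.05. The fit was first run on data simulated with a set spread and with no library standing apart. That run does not show how the fit behaves on these libraries.

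The members and lists were chosen with earlier results of these data known. Named genes are the members, list members, genes within 500 kb on GRCh38.p14 from RefSeq and the 8 nearest in pattern. List genes named with values beyond receptors and hedgehog genes were chosen after their values were seen. Transcripts came from GENCODE 44, carried over to an earlier genome build than that of the values, and were aligned with mafft 7.526. Their lengths and sequences can differ from those of the transcripts behind the values. Alternatives were other pseudocounts, filters, a fit without the trend, a replicate block, rescaling and leaving out each library; EV replicate 2 grouped with WT, other transcript lengths, lists without G34W replicate 1, the paralog sum without each library and a rescaled SCUBE2 value in EV replicate 1 were added after the data were seen.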

Additional observations from a re-analysis of the deposited data

Results flagged for a closer look

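SCUBE2 had a value of 865 in EV replicate 1, a library that the comparisons do not use, above the 75.9 of EV replicate 2. That library is listed at 0 for SCUBE1 and SCUBE3 and for 80.5% of all genes, and SCUBE2 lies on chromosome 11, where its values are present. Over 1358 genes of chromosomes 10 and 11 with a mean of at least 20, the median ratio of EV replicate 1 to EV replicate 2 was 23.8. Divided by that ratio, SCUBE2 came to 36.4, within the range of 23.6 to 75.9 in the other libraries. The SCUBE2 ratio itself was 11.4, and 4.49% of those genes had a lower one. Groups of 2 libraries are too small to test a library for standing apart.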

How the results depend on the processing

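In limma, 0 genes passed an adjusted p of 0.05 under each of 13 alternatives for G34W against WT and of 11 for each other comparison, and the SCUBE3 difference between G34W and WT was between -2.20 and -1.97 over the fits that left a library out. Between these groups SCUBE2 ranged from -0.016 to 1.02 and SCUBE1 from -1.21 to 2.23 over those fits, both negative without WT replicate 1. For WT against EV replicate 2, SCUBE3 was -0.011 after rescaling and from -0.041 to 0.064 when libraries were left out in turn, and SCUBE1 ranged from -1.59 to 1.84, both lowest without WT replicate 2. The log2 ratio of SCUBE3 to SCUBE2 per kilobase in G34W was -0.058 with the shortest SCUBE2 transcript tried. Per kilobase, SCUBE1 and SCUBE2 together differed by -3.20 between G34W and WT without WT replicate 1 and by 7.31 without WT replicate 2.

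Counts at an unadjusted p under 0.05 moved more. In the order G34W against WT, WT against EV replicate 2 and G34W against EV replicate 2, they were 791, 917 and 1017 without a filter on low values and 866, 783 and 826 without the variance trend. When libraries were left out in turn they ranged from 489 to 1999, from 649 to 792 and from 623 to 1824. WT against EV replicate 2 gave 157 genes with a mean of at least 10, and G34W against WT gave 927 with EV replicate 2 grouped with WT. With the replicate block, WT against EV replicate 2 gave 400 genes and no call changed, while SCUBE1 moved to 1.02 in WT and 1.52 in G34W against EV replicate 2. Same-numbered G34W and WT libraries deviated together with a correlation of 0.09 across 13403 genes. This single correlation does not settle whether they share more than a number. The cause of the shifts in these counts and differences was not tested.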
